A study of Mus musculus with 2 samples.

Results

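Heat shock chaperones are proteins that hold, refold or pass on other proteins, and this report follows 9 of their genes through the macrophages and red cell precursors of mouse spleen. The genes were chosen by symbol from the 26124 features of the count tables, and all 9 were found. Hspa1a, Hspa1b, Hsp90aa1, Hsph1, Dnaja4 and Dnajb1 were taken as the 6 inducible members, and Hspa8, Hspd1 and Hspe1 as the 3 constitutive ones. The choice was made with earlier results of these data known, so the levels below describe where the transcripts were held and support no claim that these genes stand out.

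The study asked how myeloid cells differ in the spleen of mice with sickle cell disease (SCD), where erythrocytes break down and release heme. Spleen cells of 1 mouse per group were freed of mature erythrocytes in lysis buffer for 2 min at 37 °C, spun at 4 °C, captured with magnetic beads coated with anti-F4/80, an antibody against a surface protein of macrophages, and sequenced as 1 droplet library each with a target of 10000 cells. Both mice were untreated, 12 to 16 weeks old and homozygous for Hbatm1Paz, which removes the mouse α-globin genes. The control, labelled wild-type, was heterozygous for Hbbtm1Tow, which removes the mouse β-globin genes, and hemizygous for the human transgene Tg(HBA-HBBs)41Paz and is labelled non-sickling. The SCD mouse carried both Hbbtm1Tow and the transgene in the homozygous state, and is labelled sickling. The control thus carries the transgene and is not an unmodified mouse, and each group is 1 animal.

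The globin genes went against these labels. Hbb-bs, an adult β-globin gene, was at 57.0 CPM, the UMIs (counted molecules) of a gene scaled to a fixed total of UMIs in the same cells, in the kept cells of the wild-type-labelled library and at 10551 CPM in the SCD-labelled library. Hbb-bt was at 90.8 and 1972 CPM. Hba-a1, deleted in both mice by their labels, was at 10915 and 3531 CPM. The samples are therefore called by their labels throughout, and no direction below can be read as an effect of the disease. The wild-type-labelled library held 145953464 UMIs in 24144 barcodes, of which 19418 were kept as cells, and the SCD-labelled library held 73986356 UMIs in 15442 barcodes, of which 12279 were kept. The libraries shared 107 barcodes, 65 of them among kept cells. With 1 library per group no test was possible, and the intervals given are 95% exact intervals that cover counting error only.

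Cells fell into 26 clusters, from which the 9 genes had been left out. Clusters with markers of red pulp macrophages, the cells that clear aged erythrocytes, were called RPM-like and held 4753 cells in the wild-type-labelled library and 1609 in the SCD-labelled library. Clusters with these markers and erythroid ones, as in the erythroblastic island where red cell precursors mature around a macrophage, were called EBI-like and held 5919 and 917 cells. Cluster 11, which was led by Tac2, Hemgn and Klf1, was called erythroid-like and held 1810 and 157 cells. Different clusters made up the first pair of classes in each library. Clusters 9, 8, 7, 18 and 15 held most EBI-like cells of the wild-type-labelled library, and cluster 25 held 623 of the 917 in the SCD-labelled library. Clusters 12 and 2 held most RPM-like cells of the first and cluster 23 held 1577 of the 1609 in the second. Values within 1 cluster are therefore given beside those of the class. Of these classes only clusters 7, 8 and 11 had at least 50 cells in both libraries.

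Cluster 8, led by the late erythroid genes Xpo7 and Tmcc2 and with Dnaja4 and the interferon-induced genes Rsad2 and Isg15 among its 10 leading genes, held 1309 cells in the wild-type-labelled library and 157 in the SCD-labelled library. Its name did not hold equally in both. The 10 macrophage markers summed to 13817 CPM in its cells of the wild-type-labelled library, against 2689.7 CPM in the largest cluster of B lymphocyte-like cells, the reference used for free RNA. They summed to 6962 CPM in its cells of the SCD-labelled library, against 1871 CPM in that reference. This is under the 4 times the reference that the name EBI-like requires, which cluster 8 passed at 5.06 over both libraries. Clusters 7 and 18, also EBI-like, were under it too in the SCD-labelled library, at 6607 and 7074 CPM. All 10 macrophage markers and all 13 erythroid markers had UMIs in cluster 8 of both libraries, and the erythroid markers summed to 21487 and 30274 CPM. It is called cluster 8 below.

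A cell under protein stress makes more of the inducible chaperones when the transcription factor HSF1 is released from them and binds heat shock elements, inverted repeats of GAA and TTC before the gene. The constitutive members do the daily work of folding in the cytosol and in mitochondria. In red cell precursors, which fill with hemoglobin and lose their organelles, the inducible Hsp70 protein is known to shield the transcription factor GATA1 from caspases. Macrophages that take up erythrocytes are known to make heme oxygenase, which breaks down heme.

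Hspa1a and Hspa1b encode the inducible Hsp70. They lie side by side on the minus strand of chromosome 17 (GRCm38), Hspa1a at chr17:34969190-34972156 and Hspa1b at chr17:34956436-34959238. The 250 bases before each start, from RefSeq on GRCm38.p6 (minus strand, chr17:34972157-34972406 and chr17:34959239-34959488), are shown because they differ at only 3 bases. Capitals mark the 1 match to GAANNTTC in each, which begins 104 bases before the start. GAANNTTC and TTCNNGAA each read the same on both strands.
Hspa1a: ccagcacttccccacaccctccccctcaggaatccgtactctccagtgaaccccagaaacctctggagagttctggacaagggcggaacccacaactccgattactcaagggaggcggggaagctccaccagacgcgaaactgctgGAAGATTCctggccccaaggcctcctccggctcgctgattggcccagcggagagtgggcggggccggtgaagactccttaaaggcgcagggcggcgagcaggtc
Hspa1b: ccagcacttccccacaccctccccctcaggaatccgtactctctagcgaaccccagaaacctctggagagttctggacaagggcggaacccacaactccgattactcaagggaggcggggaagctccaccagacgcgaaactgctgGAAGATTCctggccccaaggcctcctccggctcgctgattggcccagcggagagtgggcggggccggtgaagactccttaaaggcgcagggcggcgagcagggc

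Hspa1a was at 107 CPM (99.2 to 115) in cluster 8 of the wild-type-labelled library and at 574 CPM (513 to 639.8) in cluster 8 of the SCD-labelled library, a difference of 2.42 on the log2 scale, SCD-labelled over wild-type-labelled (2.23 to 2.61). Hspa1b had 278 and 862 CPM there, a log2 ratio of 1.63 (1.48 to 1.78). Few cells held these UMIs. Hspa1a was found in 87 of 1309 cells and in 17 of 157, and Hspa1b in 168 and 26 of them. The intervals do not cover the spread between cells. Both genes were low in cluster 11, the cells led by early erythroid genes. There Hspa1a was at 15.1 and 8.42 CPM and Hspa1b at 32.7 and 6.89 CPM in the 2 libraries. The pair summed was 3.01 higher on the log2 scale in cluster 8 than in cluster 11 of the wild-type-labelled library and 6.55 higher in the SCD-labelled library, the second from 20 UMIs in cluster 11.

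Of the 3 classes, RPM-like cells had the lowest level of the pair in both libraries, although in the SCD-labelled library the log2 ratio of erythroid-like to RPM-like cells was 0.53 (-0.26 to 1.25), an interval that holds 0. Summed, Hspa1a and Hspa1b were at 34.4 CPM in RPM-like cells of the wild-type-labelled library and at 10.6 CPM in those of the SCD-labelled library. The B lymphocyte-like reference held 16.3 and 5.76 CPM, so that RPM-like cells stood closer to the cells that served as background than to EBI-like cells. Among RPM-like clusters the sum was at 33.2 CPM in cluster 12 and 35.2 CPM in cluster 2 of the wild-type-labelled library, and cluster 23, which held most RPM-like cells of the SCD-labelled library, had 10.6 CPM. EBI-like clusters of the wild-type-labelled library ran from 63.5 CPM in cluster 7 to 385 CPM in cluster 8, with 371 CPM in cluster 15 and 224 CPM in cluster 9. Among EBI-like clusters with at least 50 cells in the SCD-labelled library, clusters 7 and 25 had 22.1 and 29.4 CPM, and cluster 8 had 1436 CPM. The EBI-like class as a whole was at 196 and 317 CPM, and without cluster 8 at 151 and 133 CPM.

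The high level was not particular to cluster 8. In the SCD-labelled library clusters 7 and 25 were far lower in the pair, as given above. Clusters 15, 9 and 18 held few cells of that library, and in these the pair was higher than in cluster 8 or near it. It was at 6075 CPM in the 25 cells of cluster 15, at 3201 CPM in the 8 cells of cluster 9 and at 1065 CPM in the 25 cells of cluster 18, and only 6, 4 and 5 of these cells had a UMI of the pair. The inducible sum was at 13554 CPM in cluster 15, 8971 CPM in cluster 9 and 15161 CPM in cluster 18 of that library, against 1569, 994 and 1049 CPM in the wild-type-labelled library. Cluster 25, which held most of the class in the SCD-labelled library, had 1671 CPM there. Without cluster 8 the inducible ratio of the class was 0.71 (0.67 to 0.74) and that of the pair was -0.18 (-0.33 to -0.04). Hsp90aa1 alone had 0.96 there, and the other inducible members lay between -0.26 and 0.24.

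Cluster 8 made up 6.74% of the kept cells of the wild-type-labelled library and held 23.1% of its Hspa1a UMIs and 22.9% of its Hspa1b UMIs. It made up 1.28% of the cells of the SCD-labelled library and held 16.9% and 12.2% of these UMIs. The EBI-like class, 30.5% and 7.47% of the kept cells, held 61.1% of the UMIs of the pair in the wild-type-labelled library and 21.4% in the SCD-labelled library. RPM-like cells, 24.5% and 13.1% of the kept cells, held 5.56% and 1.33%. In the SCD-labelled library 28.1% of the UMIs of the pair lay in Ly6c-high monocyte-like cells, 12.8% of its kept cells. Clusters left unnamed, 9.49% of its cells, held 19.8%, and DC-like cells, 30.2% of its cells, held 13.5%.

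The counted balance of the pair differed between the libraries. Hspa1b made up 72.2% (70.4 to 74.0%) of the UMIs of the pair in cluster 8 of the wild-type-labelled library and 60.02% (56.6 to 63.4%) in cluster 8 of the SCD-labelled library. It made up 76.4% and 54.0% in cluster 13, described below, and 72.4% and 67.5% over all kept cells. In cluster 8 the UMIs of the pair lay in 201 and 33 cells. The intervals treat each UMI as independent and do not cover the spread between cells, so a few cells could set the split. The transcripts are near copies over much of their length, since 1716 of the 2918 stretches of 50 bases in Hspa1a also occur in Hspa1b. None of the 451 stretches in the last 500 bases of either occurs in the other, and the assay reads the 3′ end. A part of the reads may still have been assigned to the wrong copy or discarded, so the sum of the pair is the safer value.

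**Figure D1:**
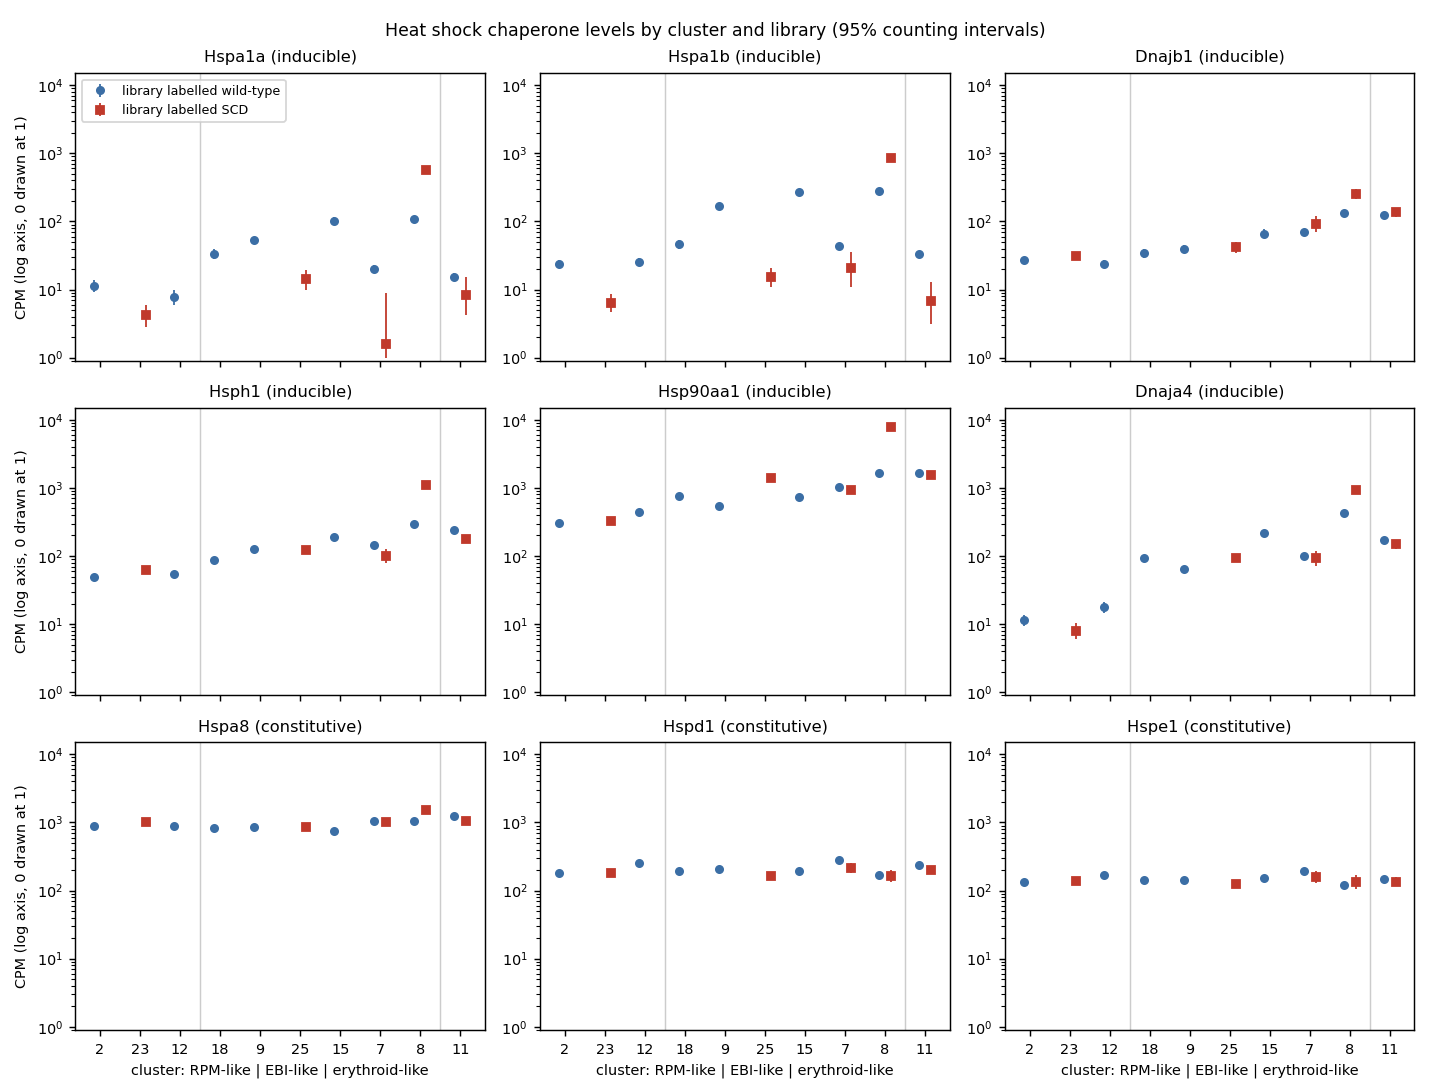
Level of each member (CPM, log axis, 0 drawn at 1) in the RPM-like, EBI-like and erythroid-like clusters with at least 50 cells in a library, with 95% counting intervals, circles for the wild-type-labelled library and squares for the SCD-labelled library. Among these groups the inducible members stand highest in cluster 8 of the SCD-labelled library, with Hsp90aa1 at 7893 CPM, whereas Hspa8 keeps between 758 and 1543 CPM in every point drawn from EBI-like clusters.

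Hsp90aa1 (chr12:110690605-110702728, minus strand) encodes the inducible form of Hsp90, which holds kinases and hormone receptors in a state ready to act, and it was the most abundant inducible member by UMIs. It was at 1648 CPM in cluster 8 of the wild-type-labelled library and at 7893 CPM in cluster 8 of the SCD-labelled library, a log2 ratio of 2.26 (2.21 to 2.31). Unlike the Hsp70 pair, it was already high in the early precursors of cluster 11, at 1633 and 1559 CPM. In the wild-type-labelled library clusters 8 and 11 were therefore near each other, with a log2 ratio of 0.01 (-0.02 to 0.05), whereas in the SCD-labelled library cluster 8 was 2.34 higher. RPM-like cells had 371 and 334 CPM, below the 639 and 613 CPM of the B lymphocyte-like reference. Its constitutive twin Hsp90ab1, not a member, was at 1924 and 5368 CPM in cluster 8, a log2 ratio of 1.48.

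Hsph1 (chr5:149614287-149636376, minus strand) encodes Hsp110, which exchanges the nucleotide of Hsp70. It was at 297 CPM in cluster 8 of the wild-type-labelled library and 1111 CPM in cluster 8 of the SCD-labelled library, a log2 ratio of 1.90 (1.77 to 2.03). Cluster 11 had 241 and 177 CPM, and RPM-like cells 52.1 and 63.0 CPM. Its pattern over clusters was nearest to that of Hsp90aa1, described further below.

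Dnaja4 and Dnajb1 encode J-domain proteins of the Hsp40 family, which hand clients to Hsp70 and start its ATPase. Dnaja4 (chr9:54698873-54716315, plus strand) was at 421 and 916 CPM in cluster 8, a log2 ratio of 1.12 (0.98 to 1.26), and at 174 and 149 CPM in cluster 11. RPM-like cells had 14.3 and 7.93 CPM, against 7.74 and 3.05 CPM in the B lymphocyte-like reference, and cluster 8 held 27.8% and 23.5% of all its UMIs, the highest shares among the 9 members in both libraries. Dnajb1 (chr8:83608193-83612653, plus strand) was at 134 and 254 CPM in cluster 8, a log2 ratio of 0.92 (0.65 to 1.18), the smallest among the 6 inducible members, and at 123 and 136 CPM in cluster 11.

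The constitutive members differed less across the same cells. Hspa8 (chr9:40800984-40810087, plus strand), the Hsp70 of unstressed cells, was at 1064 CPM in cluster 8 of the wild-type-labelled library and 1543 CPM in that of the SCD-labelled library, a log2 ratio of 0.54 (0.43 to 0.64). Cluster 11 had 1241 and 1057 CPM and RPM-like cells 888 and 1020.4 CPM. Hspd1 (chr1:55077835-55088243, minus strand) and Hspe1 (chr1:55088132-55091307, plus strand) encode the mitochondrial chaperonin and its lid, and overlap at their 5′ ends on opposite strands. Hspd1 was at 167 and 166 CPM in cluster 8, a log2 ratio of -0.01 (-0.33 to 0.29), and Hspe1 at 122 and 134 CPM, a log2 ratio of 0.14 (-0.22 to 0.48). Both intervals hold 0, from 94 and 76 UMIs in the SCD-labelled library.

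Set side by side as sums, the 6 inducible members were at 2886 and 11610 CPM in cluster 8, a log2 ratio of 2.01 (1.97 to 2.05). The 3 constitutive members were at 1353 and 1843 CPM, a log2 ratio of 0.45 (0.35 to 0.54). Hsp90aa1 gave 10369 of the 18165 inducible UMIs there in the wild-type-labelled library and 4470 of 6575 in the SCD-labelled library. The inducible sums here and below are thus largely values of that gene. Over the 6294 genes with at least 100 UMIs in this cluster the median log2 ratio was -0.51, and hemoglobin took 4.19% of the UMIs in the wild-type-labelled library and 20.5% in the SCD-labelled library. With the total taken without hemoglobin, mitochondrial and ribosomal-protein genes, an alternative chosen after the data were seen, that median was -0.29 and the sums were at 2.22 and 0.66. The values are thus to be read against a median below 0. Macrophage and erythroid markers and hemoglobin differed between the libraries in cluster 8, as given above, and their part in the result was not tested. Without cells scored as doublets the inducible ratio was 2.03.

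Cluster 8 was found again when the cells were clustered with other random seeds, a check chosen after the data were seen. Over 6 clusterings, the first included, a cluster led by Xpo7 and Tmcc2 had an inducible ratio between 1.75 and 2.09 and a constitutive ratio between 0.45 and 0.50. Its macrophage markers passed the limit for EBI-like in 4 of the 6 and fell under it in 2, where it counted as erythroid-like.

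Counted against all genes, 5 of 6 inducible members were at least 2-fold higher in cluster 8 of the SCD-labelled library and none was 2-fold lower, where 1.92% of all genes were 2-fold higher and 23.9% were 2-fold lower. Dnaja4 at 1.12 lay just inside that limit, a log2 ratio of 1, and Dnajb1 at 0.92 just outside it. None of the 3 constitutive members passed 2-fold in either direction. Between clusters of the wild-type-labelled library, 3 of 6 inducible members (Hspa1a, Hspa1b and Dnaja4) were at least 2-fold higher in cluster 8 than in cluster 11, against 21.3% of all genes higher and 24.1% lower. In the SCD-labelled library this held for 5 of 6, all but Dnajb1 at 0.90 (0.57 to 1.22), against 15.4% higher and 47.1% lower.

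Cluster 13 resembled cluster 8 in this respect. It was led by Slfn14 and Tmcc2, held 771 and 59 cells and was left unnamed, with 59.5% and 67.8% of its cells scored as doublets. The inducible sum was at 1196 CPM in the wild-type-labelled library and 8489 CPM in the SCD-labelled library, a log2 ratio of 2.83. Constitutive members were at 1497 and 2209 CPM, a log2 ratio of 0.56. Cluster 7, with 43.9% and 72.2% of its 1127 and 79 cells scored as doublets and with early erythroid genes, had an inducible sum of 1407 and 1239.8 CPM, a log2 ratio of -0.18 (-0.29 to -0.08), which became 0.26 (0.07 to 0.43) without the doublets, from 22 cells in the SCD-labelled library. Hsp90aa1 then had 0.37 (0.16 to 0.57), while the pair rested on 1 UMI. The direction in cluster 7 thus depended on the doublets.

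**Figure D2:**
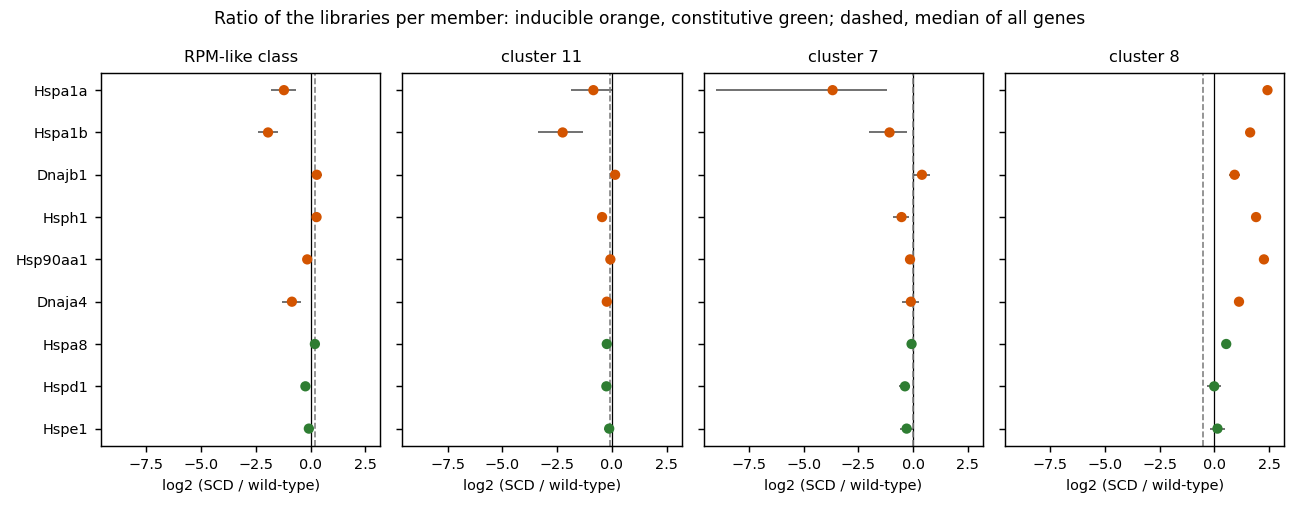
Log2 ratio of the SCD-labelled library to the wild-type-labelled library for each member in RPM-like cells and in clusters 11, 7 and 8, with 95% counting intervals as bars. Inducible members are orange, constitutive members green, and the dashed line is the median of all genes. In cluster 8 the inducible members lie between 0.92 and 2.42, and in the other panels none of them lies above 0.40, the value of Dnajb1 in cluster 7.

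By class, the directions were not shared. EBI-like cells had an inducible sum of 1540.1 and 3354 CPM, a log2 ratio of 1.12 (1.10 to 1.15), and a constitutive sum of 1327 and 1287 CPM, a log2 ratio of -0.04. Of the 6 inducible members Hspa1a and Hsp90aa1 were at least 2-fold higher in the SCD-labelled library, against 3.65% of all genes, and none was 2-fold lower, against 5.57%. RPM-like cells had an inducible sum of 497 and 446 CPM, a log2 ratio of -0.15 (-0.21 to -0.10). There none of the 6 was 2-fold higher, against 8.89% of all genes. Hspa1a and Hspa1b were at least 2-fold lower, against 4.39%, from 31 and 48 UMIs in the SCD-labelled library. The pair was also lower in the B lymphocyte-like reference of that library, as given above, and the part of free RNA was not tested. Erythroid-like cells had an inducible sum of 2219 and 2036 CPM, a log2 ratio of -0.12 (-0.18 to -0.07). Hspa1b alone passed 2-fold there and was lower, from 9 UMIs in the SCD-labelled library, against 0.79% of all genes higher and 7.79% lower. No constitutive member passed 2-fold in any of the 3 classes. The median of all genes was 0.20 in RPM-like, -0.07 in EBI-like and -0.09 in erythroid-like cells.

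The class values depend on which clusters carry which name. With 5 other clustering seeds the inducible ratio of EBI-like cells ran from 0.62 to 1.26. Earlier clusterings with the same settings and seed, under other numerical settings of the processor, gave a ratio below the reported one and a ratio above the range of the seeds, and the values here come from the third. That of erythroid-like cells was 0.87 and 0.96 where the cluster led by Xpo7 fell in that class and between -0.17 and -0.13 where it did not. Where cells were gated on markers in place of clusters, the inducible sum had a log2 ratio of 0.25 in RPM-like cells and 1.16 in erythroid-like cells, both of the other sign.

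Cells with erythroid transcripts were also ordered by stage, an alternative chosen after the data were seen. Each cell passing the erythroid gate was given the share of late genes (Xpo7, Tmcc2, Trim10, Trim58 and Bpgm) among its UMIs of late and early genes (Car1, Tac2, Klf1, Cdc6 and Tfr2). Of 7590 and 873 such cells, 6118 and 652 had at least 10 of these UMIs. The first bin, with a late share of 0 to 20%, held 338 and 46 cells, and the last, with 80 to 100%, held 4490 and 509.

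Hspa1a and Hspa1b were nearly absent from the earliest cells and highest in the latest. In the wild-type-labelled library the pair was at 9.26, 17.4, 48.3, 33.0 and 264 CPM from the first bin to the last. In the SCD-labelled library it was at 8.65, 0, 0, 60.6 and 778 CPM, where the first 4 bins rested on at most 12 UMIs and the counts of 0 allow up to 9.59 and 14.5 CPM (95% limits). The last bins differed by a log2 ratio of 1.56 (1.49 to 1.63).

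Hsp90aa1 ran the other way in the wild-type-labelled library, from 2019 CPM in the first bin to 1058 CPM in the last. In the SCD-labelled library it was at 1574, 1066, 1369 and 974 CPM in the first 4 bins and at 4902 CPM in the last. Hsph1 did the same, from 254 CPM through 80.7 CPM in the fourth bin to 714 CPM in the last, where the wild-type-labelled library had 188 CPM. Dnaja4 was higher in the last bin than in the first in both libraries, with 121 and 214 CPM in the wild-type-labelled library and 107 and 467 CPM in the SCD-labelled library.

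Dnajb1 fell from 136 to 78.0 CPM between the first and last bin of the wild-type-labelled library. In the SCD-labelled library it went from 175 through 70.7 CPM in the fourth bin (14 UMIs) to 168 CPM in the last. Its log2 ratio in the last bin was 1.10 (0.95 to 1.26). Among the constitutive members, Hspd1 went from 522 to 178 CPM and from 365 to 180.3 CPM between the first and last bin, and Hspe1 from 321 to 139.6 CPM and from 246 to 157 CPM. Hspa8 went from 1709 to 974 CPM in the wild-type-labelled library and from 1595 through 555 in the fourth bin to 1422 CPM in the SCD-labelled library.

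In the last bin the inducible sum had a log2 ratio of 1.96 (1.94 to 1.99) and the constitutive sum one of 0.45 (0.40 to 0.49). The inducible sum had -0.28, -0.65, -0.12 and -0.17 in the 4 bins before it. The macrophage markers summed to 13532 and 6883 CPM in the last bin and to 2386 and 1474 CPM in the first, and their part was not tested.

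**Figure D3:**
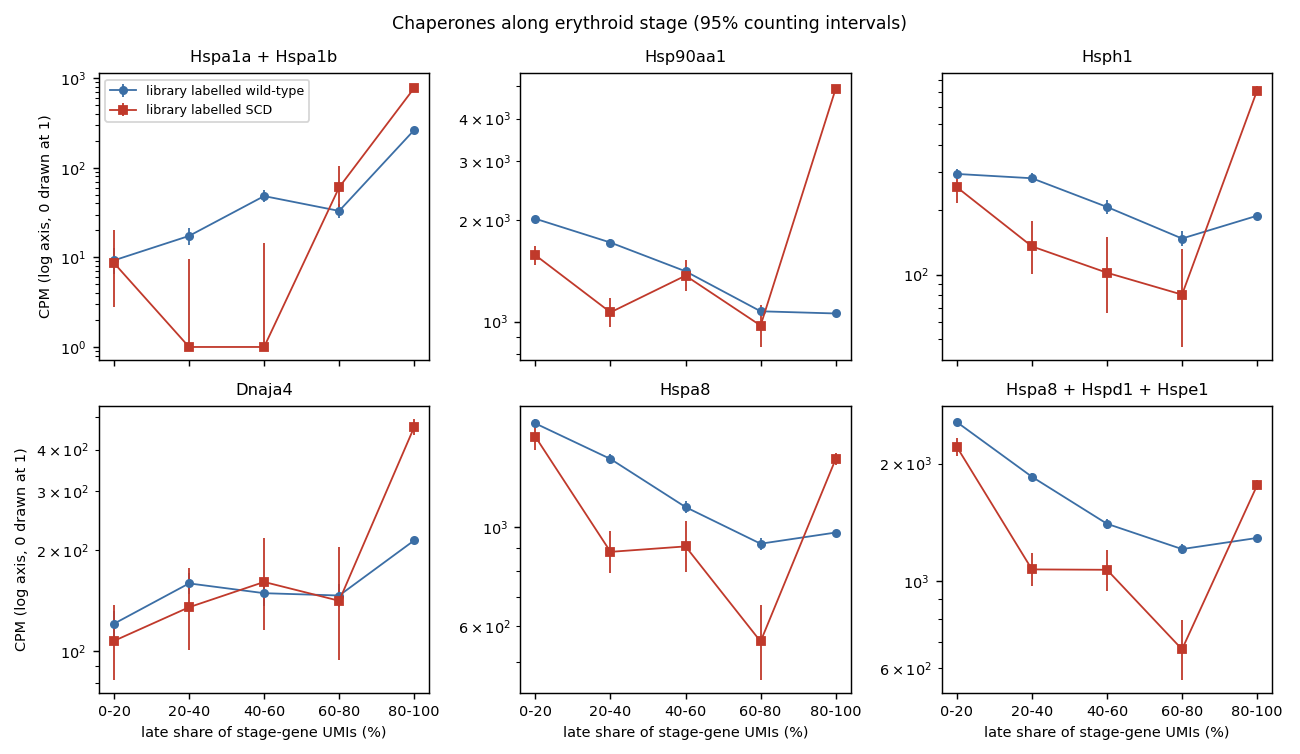
Levels (CPM, log axis, 0 drawn at 1) of the Hsp70 pair, Hsp90aa1, Hsph1, Dnaja4, Hspa8 and the constitutive sum in 5 bins of the late share of stage-gene UMIs, with 95% counting intervals, circles for the wild-type-labelled library and squares for the SCD-labelled library. The squares of Hsp90aa1 and Hsph1 lie below the circles in the first 4 bins, with overlapping intervals in the third and the fourth for Hsp90aa1 and in the first for Hsph1, and above them in the last, where the pair stands at 264 and 778 CPM and Hsp90aa1 at 1058 and 4902 CPM.

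Within a cluster the inducible transcripts were held by few cells. Each cell was thinned to 1000 UMIs so that depth could not set the counts, and shallower cells were left out. In cluster 8 of the wild-type-labelled library the median cell had 1 UMI of the 6 inducible genes, the 90th percentile 8 and the highest cell 122, and 62 of 1297 cells (4.78%) had at least 20. In the SCD-labelled library the median was 4, the 90th percentile 43 and the highest 123, and 26 of 157 cells (16.6%) had at least 20. The higher level of the sum in that library was therefore seen in the median as well as in the extreme cells. Of the members, only Hsp90aa1 had a higher median there, at 0 and 2 UMIs. Hspa1a, Hspa1b, Hsph1, Dnaja4 and Dnajb1 had a median of 0 in both libraries. For the pair summed, the 75th percentile was also 0 in both.

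The top 10% of cells held 71.8% and 57.0% of the inducible UMIs of cluster 8. Cluster 11 was more even, with 36.2% and 44.5% in its top 10%, medians of 2 and 1 UMIs, and 8 of 1805 and 2 of 157 cells with at least 20. No RPM-like cell reached 20, and the highest had 16 and 8. The constitutive UMIs of cluster 8 had a variance 3.92 and 6.71 times the mean, against 26.5 and 38.3 times for the inducible sum. The means were 1.28 and 1.87 UMIs against 3.65 and 12.4. This measure can rise with the mean, so no order of evenness is read from it.

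**Figure D4:**
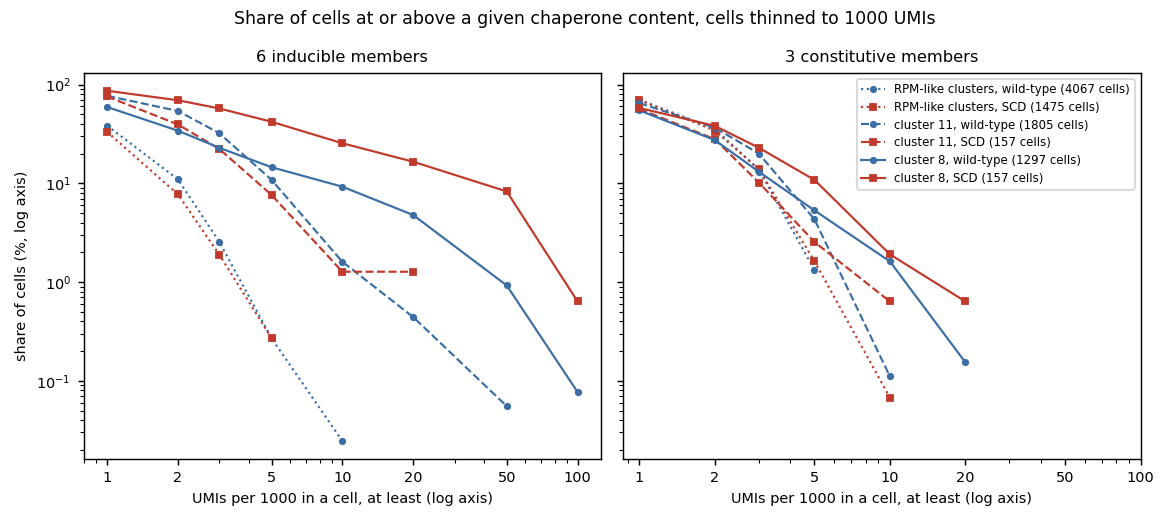
Share of cells (%, log axis) with at least a given number of inducible (left) or constitutive (right) UMIs among 1000 (log axis) in RPM-like clusters (dotted), cluster 11 (dashed) and cluster 8 (solid), blue for the wild-type-labelled library and red for the SCD-labelled library. At 20 or more inducible UMIs stand 4.78% of cluster 8 in the wild-type-labelled library, 16.6% in the SCD-labelled library and no RPM-like cell. At 3 or more constitutive UMIs stand 10.2 to 22.9% of cells.

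Cells that held the Hsp70 pair held the other members too. In cluster 8 of the wild-type-labelled library, 106 of 1297 thinned cells had a UMI of Hspa1a or Hspa1b, and these had a mean of 12.3 UMIs of Hsp90aa1 against 1.22 in the other 1191. Hsph1 was at 2.42 against 0.185 and Dnaja4 at 1.54 against 0.462. Hspa8, the constitutive relative, was at 3.72 against 0.796 in the same cells. Hspd1 was at 0.358 against 0.122 and Hspe1 at 0.198 against 0.0924.

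The SCD-labelled library gave the same order from 22 and 135 cells, with Hsp90aa1 at 31.2 against 4.63 UMIs, Hsph1 at 5.09 against 0.496 and Hspa8 at 4.73 against 1.05. Hspd1, at 0.364 against 0.0889, and Hspe1, at 0.636 against 0.0963, rested on few UMIs. The cells were split by a measured gene and share 1 library each, so these means are a description without a test.

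The share of thinned cells with a UMI of the pair was 8.17% and 14.0% in cluster 8. It was 5.86% (5.26 to 6.498%) and 4.96% in EBI-like, 2.41% and 1.02% in RPM-like and 2.22% and 1.27% in erythroid-like cells, and 0.601% and 0.528% in the B lymphocyte-like reference. Median depths before thinning were 3618 and 2896 UMIs in EBI-like cells and 2154 and 2900 UMIs in the reference. Without thinning, 12.7% and 9.38% of EBI-like cells had such a UMI. These shares of EBI-like cells did not follow the order of their CPM, and no order is read from them.

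The 10% of EBI-like cells with the most inducible UMIs were compared with the other cells for all genes outside the members. Hspa4l, a relative of Hsph1, led in both libraries, at 732 against 90.7 CPM in the wild-type-labelled library and 1484 against 113 CPM in the SCD-labelled library. Dnaja1, a further J-domain protein, was 4.76 and 6.07 times higher in these cells and Hsp90ab1 was at 4993 against 1197 CPM and at 12890.1 against 2343 CPM. Swt1 was also among the leading 10 in both, at 3.83 and 8.32 times. Chordc1, an Hsp90 partner, was 4.41 times higher in the wild-type-labelled library.

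These cells had more erythroid and fewer macrophage transcripts than the others. Among 1000 UMIs, the median of the summed erythroid markers was 14 against 10 in the wild-type-labelled library and 19 against 6 in the SCD-labelled library, and that of the macrophage markers 11 against 16 and 5 against 12. Their part in the comparison of all genes was not tested. Depth and doublet calls were lower. The median depth was 3108 UMIs against 3957 in the other EBI-like cells of the wild-type-labelled library and 2359 against 3013 in the SCD-labelled library, and 7.76% against 11.9% and 2.20% against 9.44% were scored as doublets. The median mitochondrial share was 8.73% against 9.18% and 7.11% against 8.05%. Cluster 8 contributed 41.1% of the top cells against 20.9% of the others in the wild-type-labelled library, and 46.2% against 14.1% in the SCD-labelled library. In RPM-like cells the top 10% began at 2 and 1 UMIs, with 343 and 376 cells tied at that limit, and the largest ratio of any gene was 2.30, for Bud31.

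Other genes of the heat shock response, a list of 15 with HSF factors, Bag3 and further co-chaperones chosen with earlier results known, was followed in the same cells. In cluster 8, 4 of the 9 with at least 100 UMIs were at least 2-fold higher in the SCD-labelled library, where 1.92% of all genes were, and 5 did not pass. None was 2-fold lower, against 23.9% of all genes, and the median log2 ratio was 0.99 beside -0.51 for all genes. Hspa4l had 1.67 (1.48 to 1.85) and Dnaja1 1.29 (1.14 to 1.43). In EBI-like cells 0 of 12 passed 2-fold in either direction, with a median of 0.32, against 3.65% of all genes higher and 5.57% lower, and Chordc1 had 0.63 and Cacybp 0.59. RPM-like cells had 1 of 11 higher, a share near the 8.89% of all genes, so that nothing is read from it for the list. The gene was Hsf1, at 10.4 and 25.8 CPM, a log2 ratio of 1.31 (1.01 to 1.61).

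Erythroid-like cells had 1 of 10 lower, again near the share of all genes, 7.79%. It was Bag3, which hands Hsp70 clients to autophagy, at 20.4 and 8.42 CPM from 11 UMIs in the SCD-labelled library. Bag3 also had the largest ratio of the chaperone lists between cluster 8 and cluster 11 of the wild-type-labelled library, at 97.4 against 20.4 CPM, a log2 ratio of 2.26. Hsp90ab1 had the largest ratio of the lists between the same clusters of the SCD-labelled library, at 2.44.

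Other constitutive chaperones passed 2-fold in cluster 8 about as often as all genes, of which 1.92% were higher and 23.9% lower, with a median of -0.51. Of 29 other cytosolic ones 27 were measured in cluster 8, of which 1, Hsp90ab1, was at least 2-fold higher and 5 were 2-fold lower, with a median of -0.68. Chaperones of the endoplasmic reticulum had 0 of 20 higher and 5 lower, with a median of -0.75, and Hspa5, their Hsp70, had 1107 and 719 CPM, a log2 ratio of -0.62. Mitochondrial ones had 0 of 9 higher and 3 lower, with a median of -0.23, and Hspa9, the mitochondrial Hsp70, had 110.3 and 60.04 CPM, a log2 ratio of -0.88 from 34 UMIs.

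The lowest ratios of these lists in cluster 8 were those of Pfdn1, a prefoldin subunit, at 33.1 and 7.06 CPM from 208 and 4 UMIs, of Hyou1 at -1.66 and of Dnajc19 at -1.63. In EBI-like cells the lowest were Pfdn1 at -1.22, Pfdn6 at 27.5 and 13.7 CPM and Dnajb2 at -0.96. In RPM-like cells Fkbp4 and Hsf2 were highest after Hsf1, at 0.92 and 0.81, and Pfdn1, Bag1 and Grpel1 lowest, at -0.74, -0.74 and -0.68. In erythroid-like cells Hsf1, Clpp and Afg3l2 were highest, at 0.76, 0.49 and 0.48, and Bag3, Sdf2l1 and Pdia4 lowest, the first at -1.28 and the second at -1.03.

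Cell handling is known to raise immediate early genes, and their list of 16 was followed for that reason. In cluster 8 it had 2 of 9 measured genes at least 2-fold higher in the SCD-labelled library, against 1.92% of all genes, none lower, and a median log2 ratio of 0.20. In RPM-like cells it had 7 of 14 higher, against 8.89% of all genes, and 1 lower, with a median of 0.99. The inducible sum was lower there, at -0.15, although Hsph1 was higher, at 0.28, and not all other members were lower. Dnajb1 was at 26.8 and 23.7 CPM in clusters 2 and 12 of the wild-type-labelled library and at 30.6 CPM in cluster 23 of the SCD-labelled library. The inducible sum turned to 0.19 with the libraries clustered separately and to 0.25 by marker gates. In EBI-like cells the list had 3 of 14 higher, against 3.65% of all genes, and 2 lower, with a median of 0.50. The summed level was 927 and 1612 CPM in cluster 8 and 602 and 1243 CPM in RPM-like cells. Its part in the result was not tested.

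Over all kept cells the pair had 98.6 and 91.4 CPM, a log2 ratio of -0.11 (-0.16 to -0.06), and classes outside the macrophage and erythroid cells differed in both directions. Ly6c-high monocyte-like cells had 32.4 CPM of Hspa1a and Hspa1b in the wild-type-labelled library and 166 CPM in the SCD-labelled library, a log2 ratio of 2.36 (2.17 to 2.56). Different clusters held them in each library, cluster 5 with 819 and 23 cells and cluster 4 with 336 and 1545. Within cluster 4 the pair had a log2 ratio of 1.46 and the inducible sum one of 0.70. Hspa8 was at 1285 and 1767 CPM over the class, and Dnaja4 was near 0, at 6.84 and 3.89 CPM. B lymphocyte-like cells had 13.9 and 51.0 CPM of the pair. In the SCD-labelled library 420 of the 454 UMIs lay in cluster 24, led by Igkc and Ighg3, and not in the reference cluster. Of the cells of cluster 24, 59.8% in the wild-type-labelled library and 96.6% in the SCD-labelled library were scored as doublets. DC-like cells had 20.7 and 39.1 CPM and Ly6c-low monocyte-like cells 120.5 and 101 CPM.

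Over the 42 groups of at least 50 cells of 1 cluster and 1 library, the members were compared by their log2 levels. Hsp90aa1 and Hsph1 were most alike, with a Pearson correlation of 0.92, followed by Dnajb1 and Hsph1 at 0.88, Dnajb1 and Hsp90aa1 at 0.87, and Hspa1a and Hspa1b at 0.85. Dnaja4 and Hspe1 were at -0.35, the lowest of all pairs. Among 13006 genes outside the lists, Ubb, which encodes ubiquitin, was most like the inducible sum, at 0.86, followed by Pabpc1 at 0.80, Swt1 at 0.79, Dcun1d1 at 0.78, Ube2r2 at 0.77, Rbm14 at 0.77, Cmas at 0.76, Btn1a1 at 0.76, Tab3 at 0.76 and Zfand6 at 0.76. Each of these 10 was highest in cluster 8 of the SCD-labelled library. The groups share libraries, depth and neighbouring clusters, so the correlations are a description without a test.

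Heat shock elements were looked for in the 250 bases before the starts of the members, in RefSeq windows of GRCm38.p6 (7 of 9 members have one). The windows of Hspa1a and Hspa1b hold no annotated exon. Those of the other members overlap exons, with 40 exonic bases in the first of Hsph1, 150 in the second of Dnaja4 and all 250 in those of Hspe1 and the second start of Hspd1. GAANNTTC or TTCNNGAA occurs in 12.8% of 32851 such windows of all genes, and 3 such alternating units of GAA and TTC in a row, each set off by 2 bases, in 0.466%. Hspa1a and Hspa1b, printed above, have 1 match each. The matches of the other members are shown as stretches of 30 bases, with the matching run in capitals, because they differ in length between an inducible and a constitutive gene. The lines give Hsph1 at chr5:149636351-149636380 (minus strand), Dnaja4 at chr9:54699458-54699487 and chr9:54699496-54699525 (plus strand, before its second start) and Hspe1 at chr1:55088053-55088082 (plus strand). The match of Hsph1 lies inside the span of the gene given above, and without exonic bases its window holds none. That of Hspe1 lies inside the span of Hspd1, and without exonic bases its window is empty. The window before the second start of Dnaja4 then keeps 1 of its 2 matches.
Hsph1: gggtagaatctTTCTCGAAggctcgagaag
Dnaja4, first: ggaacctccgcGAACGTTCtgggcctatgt
Dnaja4, second: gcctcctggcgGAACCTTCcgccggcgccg
Hspe1: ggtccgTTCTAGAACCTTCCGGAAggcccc

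The longest run, of 18 bases and with the 3-unit match, stood before Hspe1, within the stretch it shares with the second start of Hspd1, and these were the members whose levels differed least between the libraries in cluster 8. Dnajb1 had no match in either of its windows. The windows of Hsp90aa1 and Hspa8 were not used here. A match is only a run of letters and says nothing on whether HSF1 was bound in these cells.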

How the data were processed

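Droplet-based 3′ single-cell RNA sequencing was done on 1 spleen per group. UMI counts per gene and barcode were deposited by the authors as unnormalized matrices. The submitters' processing notes name Cell Ranger 4.0.0, R 4.4, Seurat 3.2.3, Scanpy 1.6.0 and GRCm38.p6, whereas the matrix header names Cell Ranger 3.1.0. Kept barcodes had 500 to 5000 genes, with mitochondrial UMIs below 15% and those of ribosomal proteins below 30%, and genes had to be found in at least 20 cells. The kept cells had medians of 4115.5 UMIs in the wild-type-labelled library and 4571 in the SCD-labelled library.

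Counts were normalized with scran 1.30.0 (R 4.3.3) and clustered with scanpy 1.11.5 (Python 3.11.15, python-igraph 0.11.9) on 2000 variable genes without the chaperones, 30 principal components, 15 neighbours and resolution 1. A cluster was RPM-like where its summed macrophage markers were at least 4 times those of the main B lymphocyte-like cluster, and EBI-like where erythroid markers were also at least 2 times those of that cluster. Clusters whose leading genes belong to another class, or that passed the erythroid limit without a leading marker of their own, stayed unnamed. The 3 EBI-like or erythroid-like clusters with at least 50 cells in both libraries were numbered 11, 8 and 7 by falling erythroid marker ratio. This numbering, the second rule for unnamed clusters and repeats with 5 other seeds were chosen after the data were seen. Doublets were scored and kept. The automatic limit marked 0 cells of the wild-type-labelled library, so the cells in or tied with the top 10% of scores (2046 of 19418 cells) counted as doublets there, and it marked 1712 of the SCD-labelled library.

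Raw counts were summed per library and class or cluster and divided by the total (CPM). Intervals are exact Poisson for levels, exact conditional binomial for ratios and Clopper-Pearson for shares, at 95%, and PCR and capture error are not in them. Genes with at least 100 UMIs over both groups entered the counts past 2-fold. The genes named besides the members are the 3 largest and 3 smallest ratios of the chaperone lists, 3 fixed relatives (Hsp90ab1, Hspa5 and Hspa9), the leading genes of the top 10% of cells, and the 10 genes most like the inducible sum. The members and lists were chosen with earlier results of these data known. The scripts were tested on simulated data.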

Additional observations from a re-analysis of the deposited data

Results flagged for a closer look

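Effects of opposite direction between cell classes were singled out, as log2 ratios of the SCD-labelled library to the wild-type-labelled library. With 1 library per group these differences between classes were not tested. Hspa1a was at 1.11 in EBI-like and -1.21 in RPM-like cells. Hspa1b was at 0.5 in EBI-like, -1.94 in RPM-like and -2.25 in erythroid-like cells, the last from 9 UMIs in the SCD-labelled library. The EBI-like values depended on cluster 8. Without it they were 0.002 (-0.26 to 0.25) for Hspa1a and -0.26 (-0.44 to -0.09) for Hspa1b. The sum of both was also lower in the SCD-labelled library in the B lymphocyte-like reference. Hsph1 was at 0.82 in EBI-like, 0.28 in RPM-like and -0.45 in erythroid-like cells. Hsp90aa1 was at 1.35, -0.15 and -0.07 in the same order. Dnaja4 was at 0.52, -0.85 and -0.23. Hspa8 was at 0.05 in EBI-like, 0.2 in RPM-like and -0.23 in erythroid-like cells. The inducible sum was at 1.12, -0.15 and -0.12, and the constitutive sum at -0.04, 0.1 and -0.22.

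Barcodes with under 500 genes entered no comparison and also held the Hsp70 pair. Hspa1a and Hspa1b summed to 596 CPM in those of the wild-type-labelled library and to 378 CPM in those of the SCD-labelled library.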

How the results depend on the processing

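Values are log2 ratios of the SCD-labelled library to the wild-type-labelled library. The inducible sum in EBI-like cells (1.12) kept its sign in 19 of 19 alternatives. It was 1.42 with at least 200 genes and no upper limit, 1.19 without the mitochondrial and ribosomal-protein limits, 0.93 without doublets, 1.26 with the chaperones used in clustering, 0.64 at resolution 0.5, 0.65 with the libraries clustered separately, 1.25 with the total without hemoglobin, mitochondrial and ribosomal-protein genes, 1.26 as a mean of per-cell CPM, 1.26 by marker gates, 1.80 with free RNA subtracted, 0.69 for Hspa1a and Hspa1b alone, 0.99 with a macrophage limit of 6 times, and 0.73, 1.03, 1.26, 0.62 and 1.21 with clustering seeds 1 to 5. That limit, an erythroid limit of 3 times and the seeds were chosen after seeing the data. Free RNA subtraction took off the whole level of the B lymphocyte-like reference, which for Hsp90aa1 lay above that of RPM-like cells. The reference thus held more than free RNA for this gene, and the 1.80 cannot be read as a ratio cleared of free RNA alone. In erythroid-like cells (-0.12) the inducible sum kept its sign in 10 of 19. It turned to 0.66 with at least 200 genes, 0.88 without doublets, 0.86 and 0.79 at resolutions 0.5 and 2, 0.42 with separate clustering, 1.16 by marker gates, 1.02 with the limit of 6 times and 0.87 and 0.96 with seeds 1 and 4, and was -0.21 without the limits, -0.06 with the other total and -1.64 for the pair alone. In RPM-like cells (-0.15) it turned to 0.19 with separate clustering and 0.25 by marker gates, and was -0.07 with at least 200 genes and -1.70 for the pair alone.

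The constitutive sum in EBI-like cells (-0.04) turned to 0.02 with at least 200 genes, 0.19 at resolution 0.5, 0.09 with the other total, 0.02 as a mean of per-cell CPM, 0.05 by marker gates, 0.05 for Hspa8 alone and 0.03 with seed 3, and was -0.11 at resolution 2, -0.19 with separate clustering and -0.16 with seed 4. In erythroid-like cells (-0.22) it was -0.03, -0.12, -0.06, -0.07, -0.0089, -0.31, -0.04 and -0.0085 with at least 200 genes, without doublets, at resolutions 0.5 and 2, with separate clustering, as a mean of per-cell CPM, by marker gates and with the limit of 6 times, and -0.10, -0.30 and -0.02 with seeds 1, 2 and 4. In RPM-like cells (0.10) it was 0.18 with separate clustering, 0.05 with the other total, 0.02 as a mean of per-cell CPM, 0.14 by marker gates, 0.20 for Hspa8 alone and 0.06 with seed 1. The limit of 6 times, resolution 0.5 and seeds 1 and 4 put the cluster led by Xpo7 in the erythroid-like class. With at least 200 genes, without doublets, at resolution 2 and in the wild-type-labelled library clustered alone, clusters led by Xpo7 stood in both the EBI-like and the erythroid-like class. The cause of the other shifts was not tested. Free RNA subtraction was not run for the inducible sum in RPM-like cells or for the constitutive sums, whose levels lay at or under the reference.

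No paired analysis was possible because each group is 1 library without a replicate number. Depth limits the Hsp70 pair most in the SCD-labelled library, with 20 UMIs in erythroid-like and 79 in RPM-like cells.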
